A study of Mus musculus with 28 samples.

Results

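AMP-activated protein kinase (AMPK) is a heterotrimer of 1 catalytic α, 1 scaffolding β and 1 nucleotide-binding γ subunit, and mammals encode several isoforms of each. The 8 genes described here are the α genes *Prkaa1* and *Prkaa2*, the β genes *Prkab1* and *Prkab2*, the γ genes *Prkag1*, *Prkag2* and *Prkag3*, and *Stk11*, which encodes the upstream kinase LKB1. They were taken from the deposited expression table by gene symbol, 8 of 12732 genes, and all 8 passed the filter on low values. RNA from tibialis anterior (TA) muscle, a mainly fast-twitch muscle of the mouse hindlimb, had been sequenced from 14 *mfn1,2* and 14 wt littermates, with 1 library per mouse.

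*mfn1,2* mice carried the Myl1-Cre driver with 1 deleted and 1 floxed allele of *Mfn1* and of *Mfn2*, the mitofusins that fuse mitochondrial outer membranes. Wt littermates carried 1 wild-type and 1 floxed allele of each gene, with no Cre stated. Both genotypes descended from a parent with floxed mDendra alleles, were of both sexes, ate standard chow and received no treatment. Myl1-Cre acts in fast-twitch fibers, so other cells of *mfn1,2* muscle kept the floxed alleles beside a deleted one and also differed from wt. According to the labels each genotype had 4 mice at 4 weeks of age, 4 at 6 weeks, 4 at 8 weeks and 2 at 10 weeks. The table names its columns by genotype and a running number, so ages could not be assigned and all 14 libraries of a genotype were pooled.

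LKB1, bound to a STRAD and an MO25 protein, phosphorylates the α subunit, and AMP or ADP bound to the γ subunit promotes and protects that phosphorylation. Active AMPK slows ATP-consuming synthesis, promotes glucose and fatty acid use and, in muscle, phosphorylates the Rab GTPase-activating proteins TBC1D1 and TBC1D4 that govern glucose transporter traffic. In skeletal muscle α2 and β2 are the main isoforms of their kind, and complexes with γ3, the *Prkag3* product, are largely restricted to fast glycolytic fibers. The study followed the energy status of this muscle and AMPK phosphorylation. The table holds mRNA values only, so neither phosphorylation nor protein was measured in what follows.

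Values are normalized expression values that fall with gene length, as FPKM or TPM do, so levels of different genes can be set side by side per length. Before the genotypes were compared, each library was divided by the median ratio of its genes to their geometric mean (scaled values). As deposited, the values of a library summed to 326643 to 419290 in *mfn1,2* muscle and to 426029 to 564123 in wt muscle, of which mitochondrially encoded genes took 24.9% to 35.5% and 49.4% to 71.3%. The median log2 fold change of all genes tested was 0.03 after the scaling used here and −0.04 with upper-quartile scaling, but 0.64 in the values as deposited, 0.83 after scaling to *Actb* and 1.04 after scaling to equal sums. Directions of single genes are therefore relative to the typical gene. Shares and ratios formed within a library do not depend on the scaling. In hierarchical clustering the tree of each genotype was cut into a larger and a smaller cluster. The smaller one held 1 *mfn1,2* and 4 wt libraries, which are said below to stand apart. Such a cut sets some libraries apart in any data, so whether they are outliers was not tested. Relative to the typical gene, both targeted genes were lower in *mfn1,2* muscle. Scaled values of *Mfn1* averaged 12.9 ± 3.17 in *mfn1,2* and 53.0 ± 12.5 in wt muscle (SD, n = 14 each), without overlap. *Mfn2* averaged 30.6 ± 5.03 in *mfn1,2* and 48.0 ± 4.64 in wt muscle, with overlap. Its log2 fold change was −0.66, but −0.019 in the values as deposited, 0.40 after scaling to equal sums and 0.18 after scaling to *Actb*.

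The promoters of 3 of the 4 members called lower in *mfn1,2* muscle (*Prkag3*, *Prkaa2* and *Prkab2*, the isoforms typical of skeletal muscle) and of *Prkag1*, the γ gene that passed in neither direction, are shown so that they can be compared. *Prkag2*, the remaining one called lower, has 3 alternative starts and is described by its matches only. Each is the 250 bases upstream of the RefSeq start site in GRCm38.p6, which is not the mm9 build of the table. The windows are chr1:74748956-74749205 on the minus strand for *Prkag3*, chr15:98831509-98831758 on the minus strand for *Prkag1*, chr4:105109899-105110148 on the minus strand for *Prkaa2* and chr3:97657962-97658211 on the plus strand for *Prkab2*. Capitals mark matches, on either strand, to the E-box CANNTG bound by myogenic factors or to the core of the hypoxia response element, ACGTG or GCGTG, whose letters can overlap those of an E-box.
Prkag3: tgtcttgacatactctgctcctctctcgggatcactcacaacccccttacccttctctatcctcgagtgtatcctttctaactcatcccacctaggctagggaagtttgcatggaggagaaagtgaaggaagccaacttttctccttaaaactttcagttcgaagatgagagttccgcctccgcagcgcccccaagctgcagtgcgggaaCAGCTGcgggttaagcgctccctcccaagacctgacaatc
Prkag1: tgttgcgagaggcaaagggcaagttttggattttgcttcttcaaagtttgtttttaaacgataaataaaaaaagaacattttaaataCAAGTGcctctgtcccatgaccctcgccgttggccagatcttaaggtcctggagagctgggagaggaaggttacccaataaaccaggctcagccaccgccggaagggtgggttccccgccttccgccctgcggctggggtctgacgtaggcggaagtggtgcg
Prkaa2: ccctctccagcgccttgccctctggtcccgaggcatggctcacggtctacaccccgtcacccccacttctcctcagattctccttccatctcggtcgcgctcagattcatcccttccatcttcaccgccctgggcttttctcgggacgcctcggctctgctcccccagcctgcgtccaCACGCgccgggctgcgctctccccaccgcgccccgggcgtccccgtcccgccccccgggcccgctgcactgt
Prkab2: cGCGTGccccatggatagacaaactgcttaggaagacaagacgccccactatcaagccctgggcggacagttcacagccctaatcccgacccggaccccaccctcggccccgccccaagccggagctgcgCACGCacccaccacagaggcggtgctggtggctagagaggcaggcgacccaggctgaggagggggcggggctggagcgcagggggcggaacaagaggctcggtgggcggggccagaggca
The *Prkag3* window held 1 E-box, which begins at position −40 from the start, and the *Prkag1* window held 1, at −163. The *Prkaa2* window held 1 hypoxia response element core, at −72. The *Prkab2* window held 2 such cores, at −249 and −120. Of 32851 mouse promoter windows of this length, 66.2% held an E-box and 38.6% a hypoxia response element core. None of the 4 windows matched the TEAD motif CATTCC, which 12.6% of windows held, or the MEF2 motif, which 2.92% held. The windows differed in base composition, with 52.4% G and C and 9 CpG dinucleotides in *Prkag3*, 51.6% and 12 in *Prkag1*, 70.0% and 24 in *Prkaa2*, and 69.2% and 18 in *Prkab2*. The median of all windows was 52.4% and 6. All 8 members matched a RefSeq promoter. The 3 *Prkag2* windows held 2, 3 and 1 E-boxes and 4, 1 and 1 hypoxia response element cores, and 1 of them held a TEAD match. The *Stk11* window, of a gene that was not called, held 2 E-boxes and 4 hypoxia response element cores, and those of *Prkaa1* and *Prkab1*, which rose, held 0 of either. Letters alone do not show that a factor binds.

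*Prkag3* had the largest fold change of the 8 members under each of the 5 scalings. This γ3 gene of fast fibers had scaled values of 1.14 to 3.13 (median 1.70) in *mfn1,2* libraries, against 13.2 to 35.3 (median 20.6) in wt libraries. Every *mfn1,2* library lay below every wt library, and this also held in the values as deposited and after scaling to *Actb*, to the upper quartile or to equal sums. The mean was 1.80 ± 0.533 in *mfn1,2* and 21.3 ± 6.23 in wt muscle (SD, n = 14 each), a log2 fold change of −3.48 (SE 0.14; adjusted *P* = 4.62e-19, limma). This was the 43rd largest fall among the 10819 genes tested. Across the other scalings its log2 fold change lay between −3.55 and −2.46.

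*Prkag2*, which encodes γ2, the isoform linked to inherited heart disease in humans, had values of 0.619 to 2.97 (median 1.76) in *mfn1,2* libraries, against 1.90 to 13.2 (median 4.25) in wt libraries. The ranges overlapped, and the wt library at 13.2 was 1 of the 4 that stood apart, while the 10 other wt libraries lay between 1.90 and 5.23. The log2 fold change was −1.36 (SE 0.23; adjusted *P* = 6.98e-06, limma). It no longer passed in the values as deposited (−0.75), after scaling to *Actb* (−0.56) or to equal sums (−0.35). Exons of *Prkag2* share 795 and 142 of 6480 bases with the antisense genes *Prkag2os2* and *Prkag2os1*, and whether counting used strand is not given in the sources used here.

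*Prkag1* encodes γ1, the most widely expressed γ isoform. Its values were 9.58 to 14.1 (median 11.9) in *mfn1,2* libraries, against 7.29 to 14.04 (median 11.2) in wt libraries. The ranges overlapped almost fully, and the lowest wt values, 7.29 to 8.75, were those of the 4 libraries that stood apart. The log2 fold change of 0.14 (SE 0.09) did not pass (adjusted *P* = 0.174, limma) and was 0.0035 without the libraries that stood apart. It was 0.78 in the values as deposited, 0.97 after scaling to *Actb* and 1.19 after scaling to equal sums, and passed in each. Of its exons, 950 of 2175 bases are shared with the antisense gene *B130046B21Rik*.

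**Figure D1:**
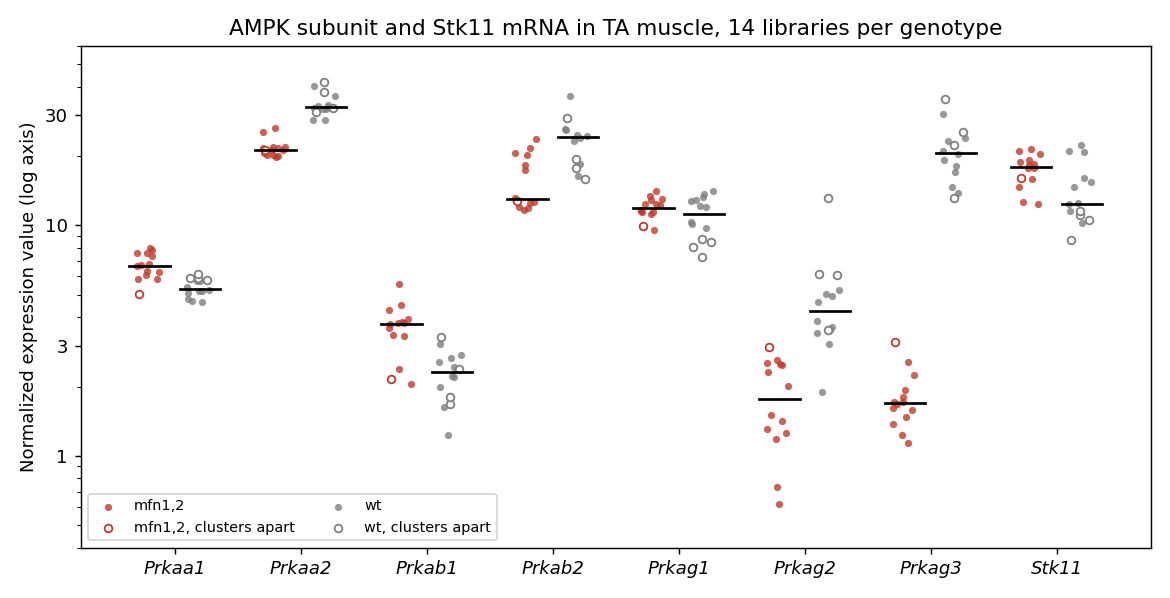
Scaled expression value (log axis) of each member, with 1 point per library, *mfn1,2* (red) left of wt (gray), bars at the medians and open points for libraries that clustered apart. *Prkag3* and *Prkaa2* are the members whose genotypes do not overlap, and for *Prkaa2* this holds with the scaling shown and with upper-quartile scaling only.

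The make-up of the γ pool changed accordingly. The share of *Prkag3* in the summed γ mRNA of a library was 7.17% to 19.6% in *mfn1,2* libraries, against 37.5% to 71.3% in wt libraries. The share of *Prkag1* was 61.8% to 84.7% in *mfn1,2* libraries, against 16.2% to 39.7% in wt libraries. Neither share overlapped between genotypes. *Prkag1* was the most abundant γ mRNA in 14 of 14 *mfn1,2* libraries and in 0 of 14 wt libraries. *Prkag3* was it in 0 *mfn1,2* and 13 wt libraries, and in the remaining wt library *Prkag2* led at 37.6%.

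On average *Prkag3* made up 11.5% ± 3.03 of γ mRNA in *mfn1,2* muscle and 56.5% ± 9.42 in wt muscle (SD, n = 14 each). The difference was −45.0 percentage points (SE 2.64). *Prkag1* made up 76.8% ± 6.08 in *mfn1,2* muscle and 30.1% ± 7.35 in wt muscle, a difference of 46.6 points (SE 2.55). For both, the 2-sided permutation test gave *P* = 1e-05, the smallest that 100000 resamples can give (adjusted 1.17e-05 over the 7 shares). The γ shares of a library make up a whole, so both differences are not independent results. *Prkag1* mRNA itself did not pass with the scaling used here. The *Prkag2* share was 11.7% ± 4.94 in *mfn1,2* and 13.4% ± 7.71 in wt muscle. Its difference of −1.68 points (SE 2.45; permutation *P* = 0.556) was within the spread between libraries. 

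**Figure D2:**
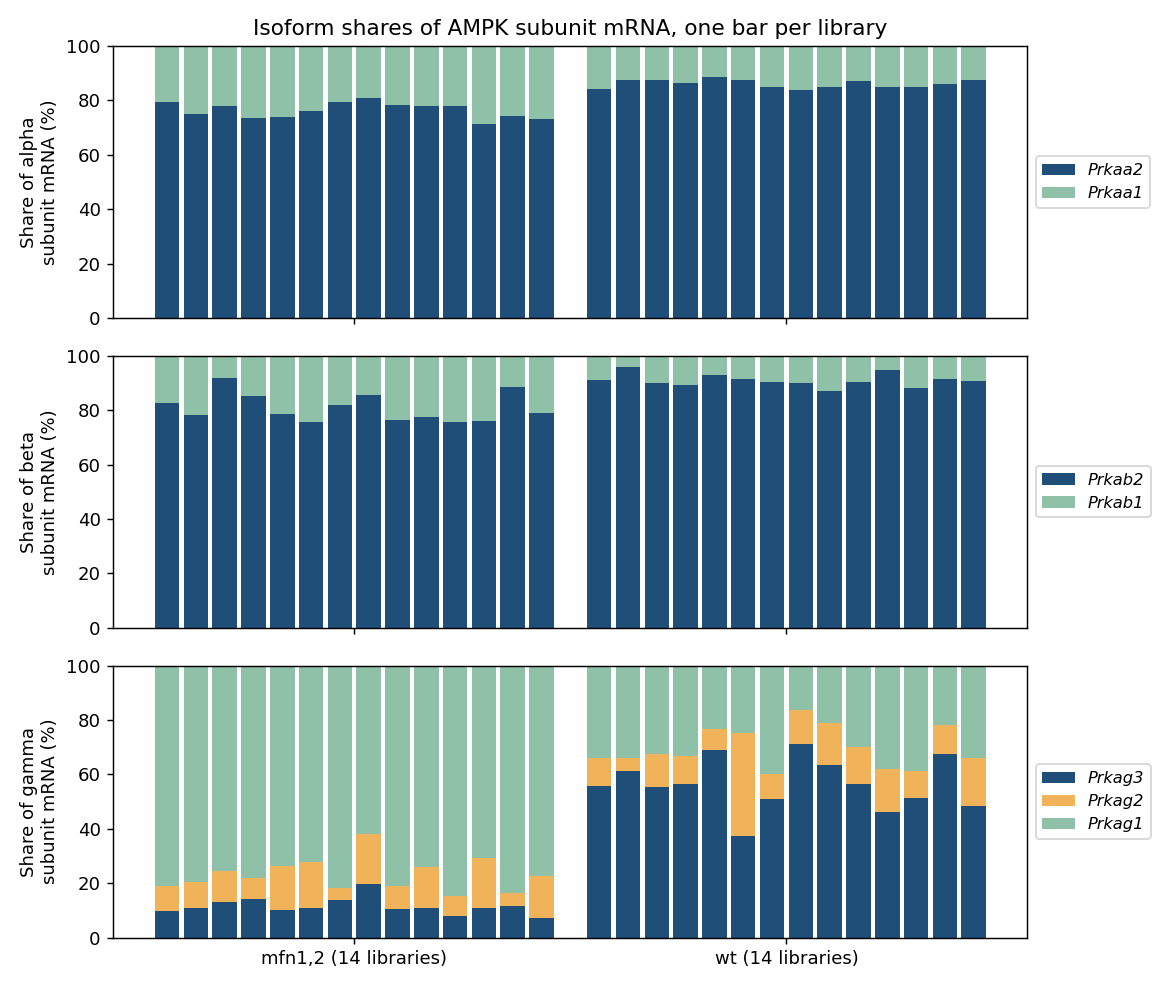
Share (%) of each isoform in the summed α (top), β (middle) and γ (bottom) mRNA, with 1 stacked bar per library and *mfn1,2* left of wt. *Prkag1* is the largest γ segment in all 14 *mfn1,2* libraries and *Prkag3* in 13 of 14 wt libraries, while *Prkaa2* and *Prkab2* lead their pools in all 28.

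Summed γ mRNA was 13.5 to 18.1 in *mfn1,2* libraries, against 28.5 to 49.5 in wt libraries. Set against the summed α mRNA of the same library, it was 0.422 to 0.615 in *mfn1,2* and 0.737 to 1.34 in wt libraries. This γ to α ratio needs no scaling between libraries, and its ranges did not overlap. It averaged 0.551 ± 0.0617 in *mfn1,2* and 0.956 ± 0.159 in wt muscle. The β to α ratio averaged 0.681 ± 0.129 in *mfn1,2* and 0.674 ± 0.185 in wt muscle, a difference well inside the spread. Sums and ratios are given without a test.

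Among the catalytic subunits, the muscle isoform *Prkaa2* (α2) had values of 19.8 to 26.4 (median 21.3) in *mfn1,2* libraries, against 28.5 to 41.7 (median 32.6) in wt libraries. The genotypes did not overlap. The log2 fold change was −0.63 (SE 0.06; adjusted *P* = 1.81e-10, limma), but it was 0.0051 in the values as deposited, 0.20 after scaling to *Actb* and 0.42 after scaling to equal sums. As deposited, *Prkaa2* values were 23.5 to 30.9 in *mfn1,2* and 15.9 to 44.0 in wt libraries, which overlap. Its fall is thus one relative to the typical gene.

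*Prkaa1* encodes α1, the isoform of most other tissues. It had values of 5.01 to 7.96 (median 6.68) in *mfn1,2* libraries, against 4.66 to 6.16 (median 5.30) in wt libraries. The ranges overlapped in part, and the lowest *mfn1,2* value was that of the library that stood apart. *Prkaa1* rose by a log2 fold change of 0.30 (SE 0.07; adjusted *P* = 2.10e-04, limma), and by 0.24 to 1.34 under the other scalings. Within the α pool its share was 19.1% to 28.7% in *mfn1,2* libraries, against 11.2% to 16.05% in wt libraries. The means were 23.7% ± 2.85 in *mfn1,2* and 13.9% ± 1.57 in wt muscle, 9.79 points apart (SE 0.869; permutation *P* = 1e-05, adjusted 1.17e-05). The *Prkaa2* share is the complement of this one, and *Prkaa2* stayed the larger α mRNA in all 28 libraries.

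The β subunits showed the same arrangement with a wider spread. *Prkab2* (β2), the muscle isoform, had values of 11.7 to 23.7 (median 13) in *mfn1,2* libraries, against 15.8 to 36.4 (median 24.1) in wt libraries. Most *mfn1,2* libraries lay between 11.7 and 13.1, and the others between 17.4 and 23.7, inside the wt range. Its log2 fold change was −0.58 (SE 0.13; adjusted *P* = 3.02e-04, limma), but 0.052 in the values as deposited, 0.25 after scaling to *Actb* and 0.47 after scaling to equal sums. *Prkab1* (β1) had values of 2.06 to 5.58 (median 3.74) in *mfn1,2* libraries, against 1.24 to 3.27 (median 2.30) in wt libraries. It rose by a log2 fold change of 0.63 (SE 0.14; adjusted *P* = 2.66e-04, limma), and in the same direction under every scaling tried. The *Prkab1* share of β mRNA was 19.1% ± 5.20 in *mfn1,2* muscle (8.01% to 24.4%) and 9.06% ± 2.36 in wt muscle (4.29% to 13.1%). These ranges overlapped, and the difference was 10.0 points (SE 1.53; permutation *P* = 1e-05, adjusted 1.17e-05). *Prkab2* stayed the larger β mRNA in all 28 libraries.

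*Stk11*, the LKB1 gene, had values of 12.4 to 21.4 (median 17.98) in *mfn1,2* libraries, against 8.63 to 22.4 (median 12.4) in wt libraries. The wt range enclosed the *mfn1,2* range. The log2 fold change of 0.34 (SE 0.13) did not pass (adjusted *P* = 0.0219, limma). It passed once any of 3 wt libraries, each with a high *Stk11* value, was left out (0.38 to 0.39), and was 0.19 without the libraries that stood apart. It also passed in the values as deposited (0.97), after scaling to *Actb* (1.16) and to equal sums (1.39). Exons of *Stk11* share 232 of 4580 bases with *Cbarp* on the opposite strand.

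Of the 8 members, 2 were called higher and 4 lower at an adjusted *P* under 0.01, where 28.2% of all genes tested were called higher and 24.9% lower. Calls as such are therefore common in this contrast. Groups that do not overlap are rarer. In 2 of the 8 members, *Prkaa2* and *Prkag3*, every *mfn1,2* library lay below every wt library, as in 5.08% of the genes tested, and in 0 members every *mfn1,2* library lay above, as in 6.15%. By a stricter rule, a Bonferroni *P* under 0.01 with a log2 fold change beyond 1 in size, 0 members were called higher and 1 lower, *Prkag3*, where 6.02% of all genes were called higher and 5.12% lower. The same members were called when the libraries that stood apart were left out, with *Prkag3* at −3.49.

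**Figure D3:**
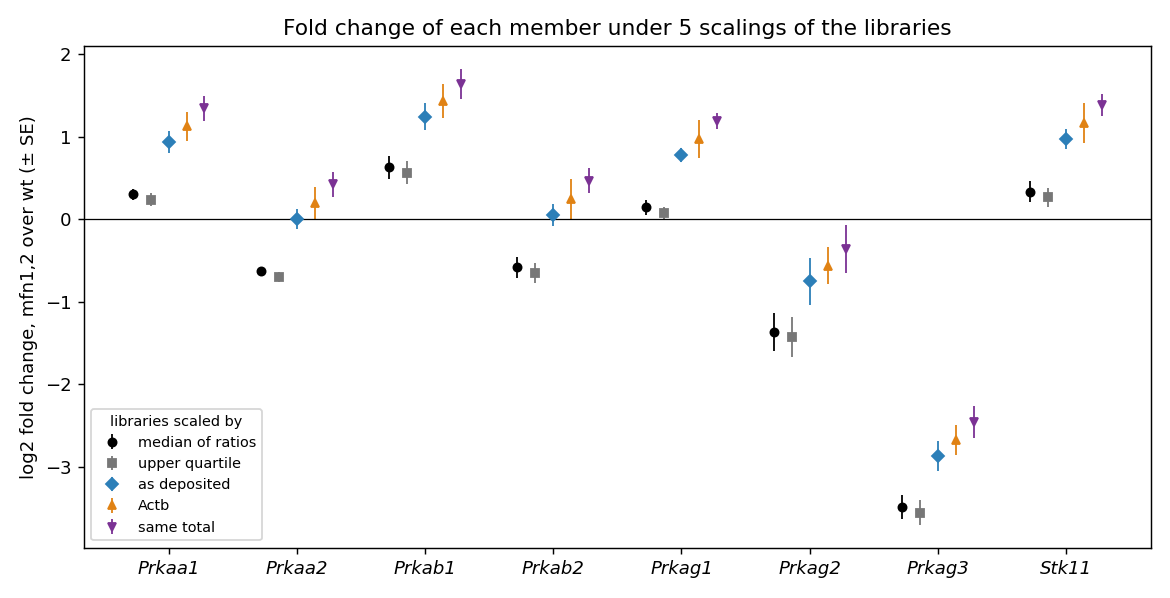
Log2 fold change (*mfn1,2* over wt, ± SE) of each member under 5 scalings of the libraries. *Prkag3* lies between −3.55 and −2.46 under all 5, *Prkaa1* and *Prkab1* lie above 0 under all 5, and *Prkaa2* and *Prkab2* lie below 0 under median-of-ratios and upper-quartile scaling only.

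Ordered by their medians, the scaled levels per length in *mfn1,2* muscle ran *Prkaa2*, *Stk11*, *Prkab2*, *Prkag1*, *Prkaa1*, *Prkab1*, *Prkag2*, *Prkag3*. In wt muscle the order was *Prkaa2*, *Prkab2*, *Prkag3*, *Stk11*, *Prkag1*, *Prkaa1*, *Prkag2*, *Prkab1*. *Prkag3* thus stood last in *mfn1,2* muscle and behind only *Prkaa2* and *Prkab2* in wt muscle. In both genotypes *Prkag1* lay above *Prkaa1* with no overlap, and the ranges of all other neighbours in the order overlapped. *Prkag2* exceeded *Prkag3* in 5 of 14 *mfn1,2* libraries, so their order there is not resolved. *Prkab2* exceeded *Prkag3* in 8 of 14 wt libraries.

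The fall of *Prkag3* came together with lower fast fiber markers. Of 10 such markers 8 fell and 0 rose, with a median log2 fold change of −1.49, against 0.03 for all genes tested. Among all genes tested, 24.9% fell and 28.2% rose. Under the scalings that move the median gene 5 markers still fell and up to 3 rose. There 284 to 538 of the 10871 to 10930 genes tested fell and 6770 to 8649 rose. The summed level of the fast fiber markers was 16418 to 30725 in *mfn1,2* and 16266 to 52229 in wt libraries. Of 10 slow fiber markers 7 rose and 0 fell, with a median of 1.28 and a summed level of 174.6 to 597.5 in *mfn1,2* and 68.6 to 284.8 in wt libraries. Of 5 tested markers of regenerating fibers 3 rose and 1 fell, with a summed level of 255.8 to 542.6 in *mfn1,2* and 22.3 to 296.8 in wt libraries. Fewer fibers of a type and less RNA per fiber cannot be told apart in whole muscle.

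Cell types other than fibers also express AMPK, mainly with α1 and β1. Their markers are given beside *Prkaa1* and *Prkab1*, which rose. For all genes tested, 28.2% were called higher and 24.9% lower. Of 8 endothelial markers 7 fell and 0 rose, and their sum was 36.6 to 55.1 in *mfn1,2* and 54.7 to 100.9 in wt libraries. Of 7 tested macrophage markers 6 fell and 0 rose, and their sum was 8.13 to 23.4 in *mfn1,2* and 11.9 to 36.2 in wt libraries. Of 8 fibroblast markers 3 fell and 0 rose, and their sum was 83.1 to 729.6 in *mfn1,2* and 178.6 to 1434 in wt libraries. In the values as deposited, after scaling to *Actb* and after scaling to equal sums, 0 markers of these 3 cell types fell. Of the endothelial markers 1, 1 and 3 then rose, of the macrophage markers 0, 1 and 1, and of the fibroblast markers 1, 1 and 2. Among all genes tested, 538 of 10871, 366 of 10877 and 284 of 10930 fell under these scalings, and 6770, 7152 and 8649 rose. None of the markers of any list was at 0 in every library. The part of fiber types and other cells in the member values was not tested.

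The fast fiber actinin gene *Actn3*, set against *Actn2*, the actinin gene of all fibers, gave a second share that needs no scaling. It was 3.01% to 33.4% in *mfn1,2* and 44.2% to 82.8% in wt libraries. Within wt muscle the *Prkag3* share of γ mRNA followed the *Actn3* share (*r* = 0.854, permutation *P* = 7e-05, adjusted 1.40e-04 over 2 genotypes; rho = 0.776, *P* = 0.00174; n = 14). Without the 2 libraries farthest from the median *Actn3* share, *r* was 0.713 (permutation *P* = 0.00955) and rho 0.643 (permutation *P* = 0.0274). Without the 4 that stood apart, *r* was 0.818 (permutation *P* = 0.00603). The rank relation was then not significant at 0.05 (rho = 0.612, permutation *P* = 0.0661). Within *mfn1,2* muscle the relation was not significant at 0.05 (*r* = 0.487, permutation *P* = 0.0800; rho = 0.420, *P* = 0.138; n = 14). Its *r* was 0.783 (permutation *P* = 0.0106) without the 2 libraries farthest from the median and 0.269 (permutation *P* = 0.382) without the library that stood apart, so it rests on single libraries. That library had the highest *mfn1,2* values of *Prkag3* (3.13), *Prkag2* (2.97) and *Actn3* (194.5). Each genotype mixes ages that could not be assigned to libraries, so the part of age in these relations was not tested.

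**Figure D4:**
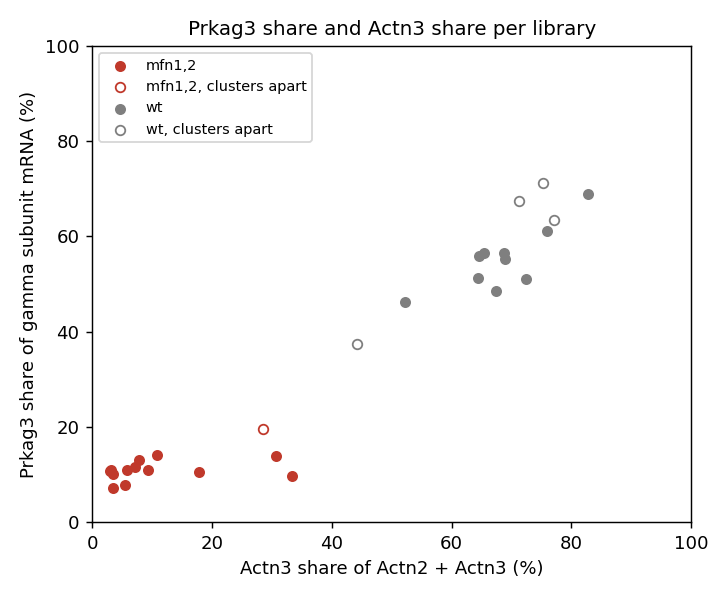
*Prkag3* share of γ mRNA (%) against the *Actn3* share of *Actn2* plus *Actn3* (%), with 1 point per library and open points for libraries that clustered apart. *mfn1,2* libraries (red) lie at the lower left, and wt libraries (gray) lie at the upper right with *r* = 0.854 among themselves.

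Genes whose scaled log2 values followed a member most closely were sought over 28 libraries after the genotype means were taken off, among the 4809 genes whose mean reached 5. The correlations are descriptions without a test, and the libraries share their scaling and unassigned ages. For *Prkag3* the closest were *Slc45a4* (*r* = 0.640), *Ampd1* (0.634), the AMP deaminase of muscle, and *Ppp1r14c* (0.620). *Prkag1* was followed most closely by 2 genes of oxidative phosphorylation, *Atp5f1* (0.891), of ATP synthase, and *Ndufa13* (0.889), of complex I, and by *Tcea3* (0.873). The 4 wt libraries that stood apart, with the lowest wt *Prkag1* values (7.29 to 8.75), were kept in. Their part in these correlations was not tested. The closest to *Prkaa2* were *Atl2* (0.815), *Klhl21* (0.767) and *Ash1l* (0.758). *Prkaa1* had *Ddb1* (0.777), the protein kinase A regulatory subunit gene *Prkar1a* (0.749) and the acetylcholine receptor gene *Chrna1* (0.741). The best match was *Rcc2* for *Prkab1* (0.579), *C1galt1* for *Prkab2* (0.663), *Wsb2* for *Prkag2* (0.675) and *Ndufaf6* for *Stk11* (0.711).

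Around the members, 13 of 14 listed kinases and regulators of AMPK were tested, of which 3 rose and 4 fell, with a median log2 fold change of −0.03, where 28.2% of all genes tested were called higher and 24.9% lower. As deposited, with equal sums and after scaling to *Actb*, 7, 12 and 8 of the 13 were called higher and 0 lower. Under these scalings 6770 of 10871, 8649 of 10930 and 7152 of 10877 genes tested were called higher, and 538, 284 and 366 lower. The stress-induced *Sesn2*, whose protein sestrin 2 is known to promote AMPK activity and restrain mTORC1, had the largest change. It averaged 3.85 ± 1.27 in *mfn1,2* and 0.167 ± 0.0705 in wt muscle, with no overlap, a log2 fold change of 3.85 (adjusted *P* = 8.81e-18, limma). Its wt level is close to the pseudocount of 0.1, so the size of this change depends on it and was 2.00 with a pseudocount of 1 and 4.48 with 0.01. *Sesn2* reached the filter on low values through the *mfn1,2* libraries. Its relative *Sesn1* averaged 10.2 ± 3.86 in *mfn1,2* and 3.71 ± 1.19 in wt muscle (1.41), and *Fnip2*, a partner of folliculin, rose as well (0.72). *Sesn3* averaged 1.97 ± 0.670 in *mfn1,2* and 3.73 ± 0.687 in wt muscle (−0.95), a direction that turned to 0.065 with equal sums. Of the 4 partners of LKB1 in the list, *Strada* did not pass (−0.03; adjusted *P* = 0.859, limma). The other 3 fell relative to the typical gene, with log2 fold changes of −0.58 for *Cab39* (MO25α), −0.43 for *Cab39l* (MO25β) and −0.31 for *Stradb*, but all 3 were above 0 in the values as deposited and after scaling to *Actb* or equal sums. *Cab39* averaged 37.2 ± 4.62 in *mfn1,2* and 56.1 ± 11.9 in wt muscle.

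AMPK-related kinases are further targets of LKB1. Of 9 tested (12 listed), 2 rose and 4 fell, with a median of −0.04. The background with the scaling used here is again 28.2% higher and 24.9% lower. As deposited, with equal sums and after scaling to *Actb*, the counts were 6, 6 and 5 higher and 1, 0 and 0 lower. Among all genes tested, 6770 of 10871, 8649 of 10930 and 7152 of 10877 were then called higher, and 538, 284 and 366 lower. *Sik3*, a salt-inducible kinase, averaged 16.4 ± 1.28 in *mfn1,2* and 9.28 ± 0.565 in wt muscle, with every *mfn1,2* library above every wt library (log2 fold change 0.81). *Nuak1* averaged 1.36 ± 0.281 in *mfn1,2* and 2.73 ± 0.416 in wt muscle, with every *mfn1,2* library below (−0.96), a direction that turned to 0.041 with equal sums. *Sik2* (−0.95) and *Snrk* (−0.77) fell as well, and both were above 0 with equal sums (0.071 and 0.27), *Snrk* also after scaling to *Actb* (0.054). *Mark1*, a microtubule affinity-regulating kinase, rose (0.59). *Mark3* had a log2 fold change of −0.29, but 0.35 in the values as deposited, 0.54 after scaling to *Actb* and 0.76 after scaling to equal sums.

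All 22 listed AMPK substrates were tested, of which 4 rose and 6 fell, with a median of −0.10, against 28.2% and 24.9% of all genes. Under the same 3 scalings 13, 17 and 14 were called higher and 1, 1 and 1 lower. All genes tested then had 6770 of 10871, 8649 of 10930 and 7152 of 10877 called higher, and 538, 284 and 366 lower. The largest changes were in opposite directions in the 2 related Rab GTPase-activating proteins. *Tbc1d1* had values of 2.38 to 8.73 (median 3.95) in *mfn1,2* libraries, against 15.4 to 67.9 (median 30.4) in wt libraries, with no overlap (log2 fold change −2.82, SE 0.19; adjusted *P* = 7.76e-14, limma), though the ranges overlapped after scaling to *Actb*. *Tbc1d4* had values of 7.28 to 23.0 (median 14.2) in *mfn1,2* libraries, against 1.35 to 3.73 (median 2.15) in wt libraries, with no overlap (2.44, SE 0.16; adjusted *P* = 9.40e-14, limma). As a share of the pair, *Tbc1d4* made up 74.97% ± 10.9 in *mfn1,2* muscle (45.5% to 89.3%) and 8.10% ± 3.76 in wt muscle (2.95% to 16.1%). This share was formed after the values were seen and has no test. The library with 45.5% was the *mfn1,2* library that stood apart.

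*Acaca*, the acetyl-CoA carboxylase of fatty acid synthesis, averaged 10.2 ± 2.18 in *mfn1,2* and 3.23 ± 0.760 in wt muscle, with no overlap (log2 fold change 1.63; adjusted *P* = 1.20e-13, limma). *Acacb*, the muscle carboxylase whose product restrains fatty acid entry into mitochondria, averaged 28.4 ± 3.73 in *mfn1,2* and 26.1 ± 4.87 in wt muscle and did not pass (0.13; adjusted *P* = 0.168, limma). *Acacb* passed as higher in the values as deposited (0.77), after scaling to *Actb* (0.97) and to equal sums (1.19). *Foxo3*, a transcription factor of atrophy genes, rose (0.67), as did *Gfpt1*, the entry enzyme of hexosamine synthesis (0.60). *Srebf1* (−0.81), *Hdac4* (−0.72) and *Tfeb* (−0.70), regulators of lipid synthesis, muscle gene expression and lysosome genes, fell, and all 3 were above 0 with equal sums, *Hdac4* and *Tfeb* also after scaling to *Actb*.

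**Figure D5:**
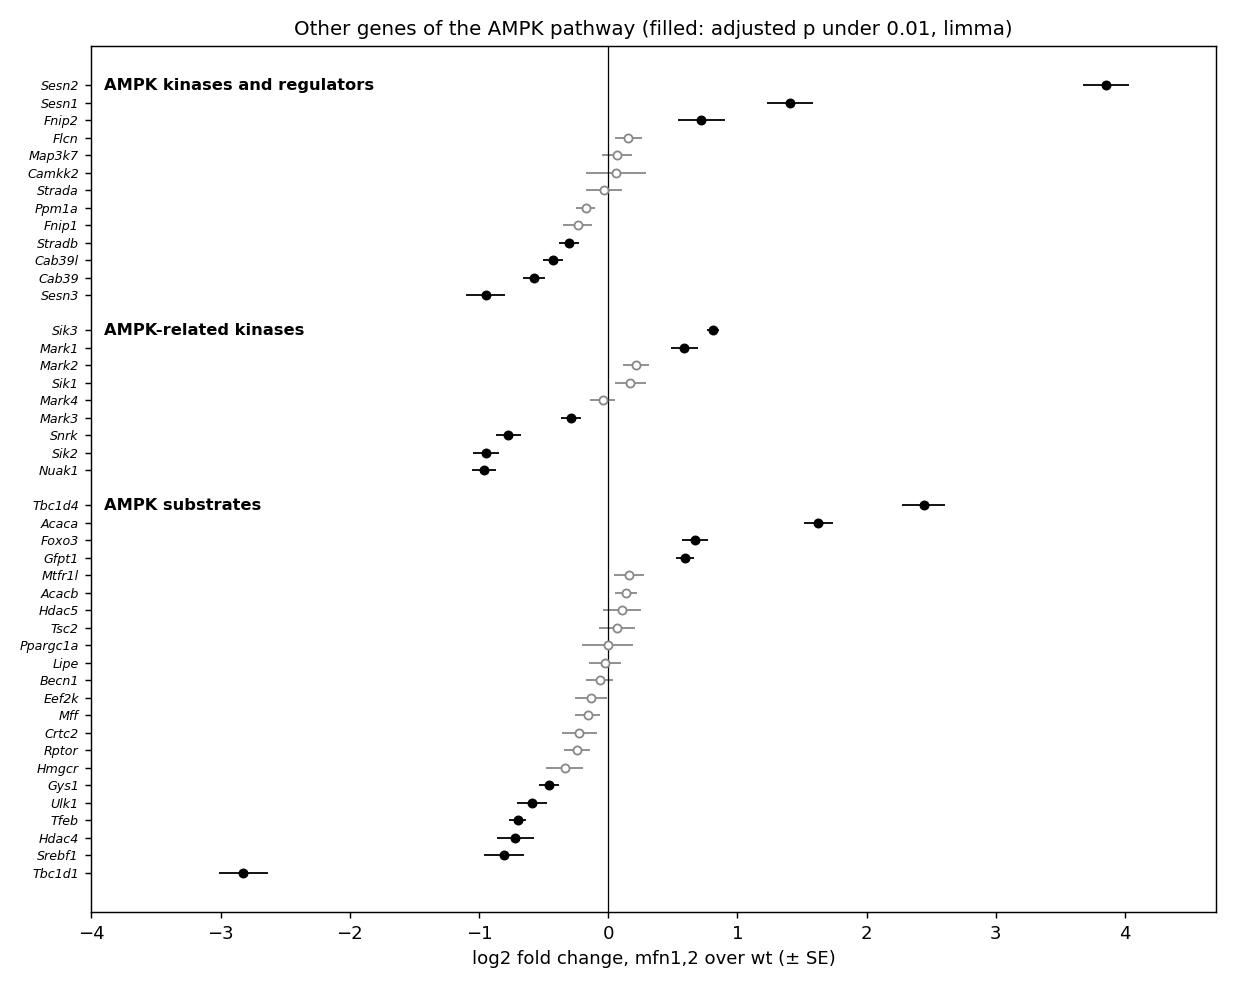
Log2 fold change (*mfn1,2* over wt, ± SE) of the tested genes of 3 AMPK pathway lists, filled where the adjusted *P* from limma was under 0.01. *Sesn2* (3.85) and *Tbc1d4* (2.44) lie farthest to the right and *Tbc1d1* (−2.82) farthest to the left, and *Cab39*, *Cab39l*, *Stradb*, *Sik2*, *Nuak1*, *Snrk*, *Mark3*, *Sesn3*, *Srebf1*, *Hdac4* and *Tfeb*, all below 0 here, were above 0 with equal sums.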

How the data were processed

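Muscle of 28 mice was analysed, 14 per genotype. The authors prepared libraries with a stranded total RNA kit. Tools named in the submitters' processing notes are HISAT2, featureCounts, Trim Galore and DESeq2, with the build mm9 and no versions. The deposited values are a normalized signal per gene, called DESeq2-normalized by the authors. Rounded to a percent, 100% of nonzero values lay further than 1e-06 from a whole number. Lowest values fell as exonic length grew (GENCODE M21, slope −1.02 on log-log axes, 262 genes), as in FPKM or TPM. The exact unit and the depth are unknown, so no count test or counting interval is given. Columns left unused numbered 0, and no libraries were duplicates.

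Libraries were divided by the median of their ratios to the geometric mean over 11693 genes above 0 in all. The comparison of genotypes used limma 3.58.1 (R 4.3.3, mean-variance trend) on log2(value + 0.1), a scale that understates changes of low genes, for the 10819 genes whose mean reached 0.5. Genes are described as rising or falling where p, adjusted over all genes tested by Benjamini-Hochberg, was under 0.01. Shares and correlations were tested with 2-sided permutation tests (100000 resamples; scipy 1.17.1, Python 3.11.15). Complementary shares of the α and of the β genes are 1 comparison each, and the γ shares are not independent of each other. The model was tested on simulated data. Apart from the members, text genes were up to 4 called genes per pathway list and direction with the largest change, *Mfn1*, *Mfn2*, *Actn2* and *Actn3*, and the genes closest to each member. *Acacb* and the *Tbc1d1* and *Tbc1d4* pair share were added after values were seen. The members and lists were chosen with earlier results of these data known. Promoters are from RefSeq (GRCm38.p6), and overlaps from GENCODE M21 on GRCm38. Alternatives were other scalings, pseudocounts and filters, a stricter call, leaving out each library, and leaving out the libraries that stood apart, of which leaving out only the wt ones was chosen after seeing the data.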

Additional observations from a re-analysis of the deposited data

How the results depend on the processing

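Upper-quartile scaling, pseudocounts of 1 and 0.01, no filter, and leaving out all libraries that stood apart or only the wt ones left the call of every member, and the direction of every called one, in place. Leaving out each library gave 2 to 3 members called higher and 4 called lower, the third being *Stk11*; the *Prkag3* log2 fold change lay between −3.55 and −3.42, and the *Prkag2* share difference between −2.32 and 0.19 percentage points. Scalings that move the median of all genes changed single-gene calls. In the order as deposited, equal sums and *Actb*, 4, 6 and 4 members were called higher and 1, 1 and 1 lower. Of all genes tested, 6770 of 10871, 8649 of 10930 and 7152 of 10877 were called higher there, and 538, 284 and 366 lower. AMPK kinases and regulators then had 7, 12 and 8 higher and 0, 0 and 0 lower, AMPK-related kinases 6, 6 and 5 higher and 1, 0 and 0 lower, and substrates 13, 17 and 14 higher and 1, 1 and 1 lower. With a mean of at least 5, 1 member was called higher (*Prkab1* and *Prkag2* were not tested), 1 kinase or regulator was higher and 2 lower, and 1 related kinase was higher and 2 lower, since fewer genes were tested. The stricter call left 0 members higher and 1 lower. Log2 fold changes turned, in the same order, to 0.0051, 0.42 and 0.20 for *Prkaa2*, 0.052, 0.47 and 0.25 for *Prkab2*, 0.062, 0.48 and 0.26 for *Cab39*, 0.19, 0.60 and 0.38 for *Cab39l*, 0.33, 0.74 and 0.52 for *Stradb* and 0.35, 0.76 and 0.54 for *Mark3*. With equal sums and *Actb* they turned to 0.40 and 0.18 for *Mfn2*, 0.27 and 0.054 for *Snrk*, 0.32 and 0.10 for *Hdac4* and 0.34 and 0.12 for *Tfeb*. With equal sums alone they turned to 0.065 for *Sesn3*, 0.071 for *Sik2*, 0.041 for *Nuak1* and 0.22 for *Srebf1*. The relation of the *Prkag3* and *Actn3* shares in *mfn1,2* muscle had *r* = 0.78 without the 2 farthest libraries (permutation *P* = 0.0106), against 0.487 with all (permutation *P* = 0.0800). The cause of these changes was not tested beyond the shift of the median gene. No paired analysis was possible because the columns carry no replicate numbers of the labels. Precision rests on 14 libraries per genotype, since depth is unknown.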
